A study of Homo sapiens with 4 samples.

Results

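The noradrenergic core transcription factors are the DNA-binding proteins PHOX2A, ISL1, HAND1, HAND2, GATA2, GATA3, TBX2 and TFAP2B, which were chosen by name. All 8 were found among the 19734 gene rows of the deposited table, and all 8 passed the filter for testing, a mean level of at least 5 over the libraries, with 9324 genes in all. RNA came from BE(2)C:MYCN-ORF cells, a human neuroblastoma line that carries a MYCN open reading frame in every group; whether these cells are a clone or a pool is not given in the sources used here. The cells were transfected with siCon or siMYCN, a control siRNA or one against MYCN, together with miRCon or let-7a, a control miRNA mimic or the let-7a mimic, and polyA RNA was taken for sequencing after 48 hours. Each of the 4 groups held 1 library. They are called the control library (siCon, miRCon), the let-7a-only library (siCon, let-7a), the siMYCN-only library (siMYCN, miRCon) and the double library (siMYCN, let-7a).

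Sympathetic neurons and the chromaffin cells of the adrenal medulla arise from the neural crest, and their noradrenergic identity is set by a small group of transcription factors. In noradrenergic neuroblastoma these factors bind large enhancers near their own and each other's genes, an arrangement called a core regulatory circuit, and MYCN binds many of the same enhancers. Their downstream genes include the enzymes and transporters that make, store and recover noradrenaline. The miRNA let-7a lowers mRNAs that pair with its seed, bases 2 to 8, usually through sites in the 3' UTR.

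The let-7a sequence is shown because matches to its seed, in capitals, were sought in the 8 transcripts. It is the RefSeq entry on GRCh38.p14.
hsa-let-7a-5p: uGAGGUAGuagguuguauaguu

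Seed matches were sought in the longest annotated 3' UTR of each factor (GENCODE release 29, GRCh38), as an 8mer (CTACCTCA), a 7mer-m8 (CTACCTC), a 7mer-A1 (TACCTCA) or a 6mer (TACCTC). HAND1 was the single factor with an 8mer, HAND2 held 1 7mer-A1, ISL1 held 1 6mer and TFAP2B held 2 6mers. PHOX2A, GATA2, GATA3 and TBX2 held none of these words. Among 8916 tested genes with a 3' UTR, the best match was an 8mer in 4.42%, a 7mer-A1 in 7.49%, a 6mer in 10.3% and none in 70.6%. The matches of HAND1, HAND2 and ISL1 are printed 5' to 3' as DNA with the bases upstream of them, and the paired word is in capitals.
HAND1 8mer: tccccaacccttttCTACCTCA
HAND2 7mer-A1: tcttttaatggctgaTACCTCA
ISL1 6mer: agcattgcaacaaggtTACCTC
The HAND1 word lies at chr5:154475055-154475062 on the minus strand, 744 to 751 bases into a 3' UTR of 834 bases. The HAND2 word lies at chr4:173526579-173526585 on the minus strand, and the ISL1 word at chr5:51394317-51394322 on the plus strand. A match of letters describes the sequence and does not show that let-7a binds there.

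The deposited values were read as natural logs, a base judged from the column sums. With it, exp(x) - 1 returned values that summed to between 855811 and 862049 in each library, so they are called TPM-like. Read as such, they are scaled for transcript length, and levels are compared between genes on that reading. Read numbers cannot be had from them, and counting error is unknown. Mitochondrially encoded transcripts made up 31.6% and 32.1% of all values with siCon, and 28.4% and 29.3% with siMYCN. MYCN, the siRNA target, was at 1449 and 1433 in the siCon libraries and at 1238 and 1197 in the siMYCN libraries, so the siRNA was accompanied by a small difference in its target (adjusted p = 0.0584 by limma). LIN28B, a known let-7 target, was at 157 and 119 with miRCon and at 96.5 and 55.5 with let-7a, siCon first (adjusted p = 0.663 by limma). The MYCN values can mix the introduced reading frame with the cells' own gene. The 7 sympathetic neuroblast markers used here were above 1 in every library and summed to between 1641 and 2516. They include PHOX2A, itself among the 8 factors, which contributed 566 to 644 to these sums. Of markers of other cells, 5 of 6 blood genes were below 1 in every library. Among 4 adrenal cortex genes, NR5A1 and CYP17A1 were listed at 0 throughout and CYP11A1 was at 0.402 or less. The remaining one, STAR, was at 3.46 in the control library, 4.78e-05 with let-7a alone, 2.39 with siMYCN alone and 2.31 in the double library. CDH1 and FABP7 were also listed at 0 throughout. The 5 epithelial markers, CDH1 among them, summed to between 9.53 and 14.25. In each library 2 of these 5 were below 1, while KRT18 lay between 5.31 and 9.01. The 7 fibroblast-type genes summed to between 298 and 352 and were uneven in level. LUM (83.9 to 123) and THY1 (140 to 152) were the highest, while COL1A2 was at 0.185 or less and PDGFRA between 3.11 and 4.25. The summed Schwann-type glial markers were 8.29 and 10.3 with siCon and 16.3 and 15.5 with siMYCN; their part in any siMYCN difference was not tested. In cell populations such as these, fewer cells with a transcript and less of it per cell cannot be told apart.

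All 8 factors were abundant mRNAs. PHOX2A was the highest in 3 of the 4 libraries and lay above the 99th percentile of gene rows in every library, while GATA3, the lowest on average, still lay at percentiles 87.8 to 92.1. The order in the control library was PHOX2A, HAND1, GATA2, HAND2, TBX2, ISL1, TFAP2B and GATA3. In the double library the order was GATA2, PHOX2A, HAND1, HAND2, TFAP2B, TBX2, GATA3 and ISL1. With 1 library per group the spread between replicates is unknown, so whether neighbours in either order differ cannot be said.

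**Figure D1:**
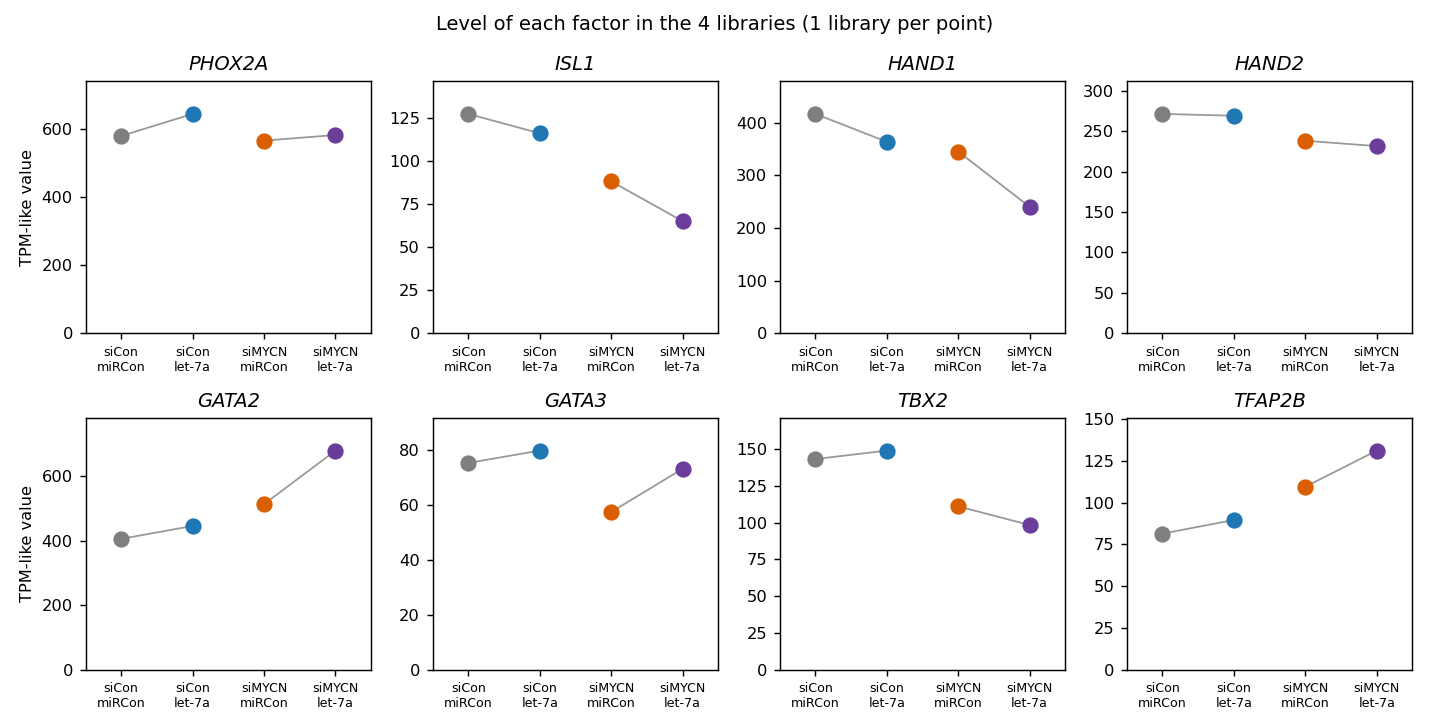
TPM-like value (vertical axis, starting at 0) of each factor in the 4 libraries, 1 point per library; grey lines join the libraries of the same siRNA without and with let-7a. GATA2 and TFAP2B are higher in both siMYCN libraries, and ISL1, HAND1, HAND2, GATA3 and TBX2 are lower in both.

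With siMYCN the 8 factors moved in both directions. ISL1 fell, and GATA2 and TFAP2B rose, by limma with Benjamini-Hochberg adjustment over all tested genes. That makes 2 of 8 higher, against 2.07% of all tested genes, and 1 of 8 lower, against 1.36%, or 3 either way, against 3.43%. At an unadjusted p under 0.05, 6 of 8 passed limma, against 26.4%. The other 5 factors did not pass, although 4 of them had both siMYCN libraries below both siCon libraries. Levels did not overlap between siMYCN and siCon for 7 of 8, against 56.7% of all tested genes. Of these, 2 were higher, against 35.6%, and 5 lower, against 21.1%. The median log2 fold change of the 8 was -0.23, and that of all tested genes was 0.056. All fold changes here were computed on log2(value + 1), which understates those of low genes. The limma model adds the effects of siRNA and mimic over the 4 libraries, and its only residual is the departure from that addition. Its p-values therefore assume additive effects and do not replace replicate cultures.

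The calls stood near the threshold and changed with scaling. Rescaling by median ratios gave 2 factors higher and 3 lower, with HAND1 (adjusted p = 0.0231 by limma) and TBX2 (adjusted p = 0.0212 by limma) added, and 343 genes higher and 408 lower over all genes, against 193 and 127 as deposited. With no filter or without a trend limma passed 0 factors, and it also passed 0 of all genes each way. At an unadjusted p under 0.05 limma gave 4 and 5 of the 8 factors, against 2457 of 19734 and 2221 of 9324 genes.

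ISL1 is a LIM-homeodomain factor needed for sympathetic neuron differentiation, and its gene lies on chromosome 5 from 51383391 to 51394738 (GRCh38, plus strand). Transcripts stood at 128 in the control library, 116 with let-7a alone, 88.3 with siMYCN alone and 65.1 in the double library. Both siMYCN libraries were lower than both siCon libraries, and the double library was the lowest. The siMYCN log2 fold changes of ISL1 were -0.53 beside miRCon, -0.83 beside let-7a and -0.68 ± 0.10 over both pairs (SE, n = 4 libraries, adjusted p = 0.0434 by limma). The call held in 7 of 9 settings, and was lost with no filter (adjusted p = 0.39) and without a trend (adjusted p = 0.133) in limma. In both of those settings 0 of all genes passed.

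PHOX2A is a paired-type homeodomain factor that acts on the dopamine beta-hydroxylase gene, and lies on chromosome 11 from 72239077 to 72245664 (minus strand). It was at 579 in the control library, 644 with let-7a alone, 566 with siMYCN alone and 582 in the double library. The siMYCN and siCon levels overlapped. The log2 differences were -0.034 beside miRCon and -0.15 beside let-7a (adjusted p = 0.373 by limma over both pairs).

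HAND1 and HAND2 are basic helix-loop-helix factors that bind DNA with E-protein partners; HAND2 is needed for noradrenergic differentiation of sympathetic precursors. HAND1 lies on chromosome 5 from 154474972 to 154478264 and HAND2 on chromosome 4 from 173524969 to 173530229, both on the minus strand. HAND1 was at 417 in the control library, 364 with let-7a alone, 346 with siMYCN alone and 240.3 in the double library. Its levels with siMYCN lay below those with siCon, and the double library stood well under the other 3. The siMYCN log2 values were -0.27 beside miRCon, -0.60 beside let-7a and -0.43 ± 0.092 over both pairs (SE, adjusted p = 0.0647 by limma), which did not pass.

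HAND2 varied much less. It was at 272 in the control library, 269 with let-7a alone, 238 with siMYCN alone and 232 in the double library. Both siMYCN libraries were lower than both siCon libraries, by similar amounts, -0.19 and -0.22 in log2 terms (adjusted p = 0.123 by limma over both pairs). HAND1 exceeded HAND2 by 1.54 times in the control library, 1.35 times with let-7a alone, 1.45 times with siMYCN alone and 1.04 times in the double library. The excess of HAND1 over HAND2 was thus nearly gone in the double library.

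GATA2 and GATA3 are zinc-finger factors that bind GATA motifs and are both used in the sympathetic lineage. GATA2 lies on chromosome 3 from 128479427 to 128493185 (minus strand) and GATA3 on chromosome 10 from 8045378 to 8075203 (plus strand). GATA2 was at 406 in the control library, 446 with let-7a alone, 513 with siMYCN alone and 679 in the double library. Its siMYCN levels were above both siCon levels, and the highest was in the double library, where it passed PHOX2A. GATA2 rose by 0.34 beside miRCon, 0.61 beside let-7a and, on the same log2 scale, 0.47 ± 0.080 over both pairs (SE, adjusted p = 0.0487 by limma). The call held in 4 of 9 settings, over which the limma adjusted p ran from 0.0306 to 0.413.

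GATA3 had the opposite sign to GATA2 in both siMYCN pairs, and this difference between the genes was not tested. It was at 75.3 in the control library, 79.8 with let-7a alone, 57.4 with siMYCN alone and 73.2 in the double library. The siMYCN-only library was the lowest, and the double library came close to the siCon levels. Log2 values for siMYCN were -0.39 beside miRCon and -0.12 beside let-7a (adjusted p = 0.195 by limma over both pairs). GATA2 exceeded GATA3 by 5.38 and 5.58 times in the siCon libraries and by 8.94 and 9.28 times in the siMYCN libraries.

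TBX2 is a T-box factor known mainly as a repressor, with roles in holding back cell cycle inhibitors, and lies on chromosome 17 from 61399896 to 61409466 (plus strand). It was at 143 in the control library, 149 with let-7a alone, 111 with siMYCN alone and 98.4 in the double library. The siMYCN libraries were below the siCon libraries with no overlap. In log2 terms the siMYCN values were -0.36 beside miRCon, -0.59 beside let-7a and -0.48 ± 0.089 over both pairs (SE, adjusted p = 0.0562 by limma), which did not pass.

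TFAP2B is an AP-2 factor of the neural crest and sympathetic lineage, and lies on chromosome 6 from 50818723 to 50847613 (plus strand). It was at 81.4 in the control library, 89.5 with let-7a alone, 109 with siMYCN alone and 131 in the double library. Every siMYCN value was above every siCon value. TFAP2B rose by 0.42 beside miRCon and 0.54 beside let-7a in log2 terms, and by 0.48 ± 0.082 over both pairs (SE, adjusted p = 0.0488 by limma). This call, too, held in 4 of 9 settings, with limma adjusted p from 0.0364 to 0.367. TFAP2B was at 0.638 times the level of ISL1 in the control library and at 2.01 times in the double library.

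**Figure D2:**
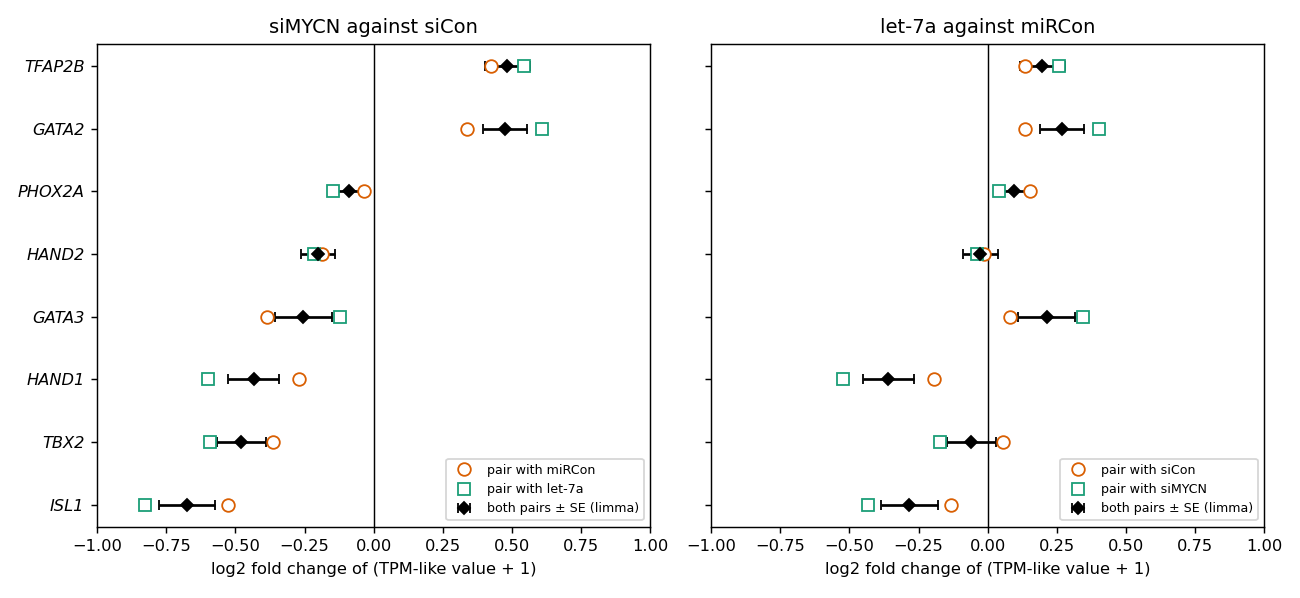
Log2 fold change of (TPM-like value + 1) for each factor with siMYCN (left) and with let-7a (right); open symbols are the single pairs of libraries and black diamonds the value over both pairs with its limma SE. With siMYCN, ISL1 lies lowest at -0.68 and TFAP2B highest at 0.48 over both pairs.

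By size alone, 4 factors moved in one direction in both siMYCN pairs with the higher level at least 25% above the lower. GATA2 and TFAP2B were the 2 higher ones, against 10.7% of all tested genes, and ISL1 and TBX2 the 2 lower ones, against 5.79%. No factor reached 1.5-fold in both pairs (0 of 8), a size reached by 2.85% of tested genes upward and 1.61% downward. All 8 factors had the same sign in both pairs, as did 70.6% of tested genes. The siMYCN difference was larger in the pair with let-7a for 7 of the 8, against 52.3% of tested genes; GATA3 was the exception.

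With let-7a no factor passed limma, with 0 of 8 higher and 0 of 8 lower, as was the case for all tested genes (0.0% in each direction). At an unadjusted p under 0.05 limma gave 1 factor higher and 2 lower, and 7.48% of all tested genes either way; no other tool was run. By the 25% rule 0 of 8 passed in both let-7a pairs, against 1.47% of tested genes upward and 2.03% downward, and 0 of 8 at 1.5-fold, against 0.204% and 0.257%. HAND1, the factor with the 8mer, had the lowest let-7a value of the 8. Its let-7a log2 values were -0.20 beside siCon, -0.52 beside siMYCN and -0.36 ± 0.092 over both pairs (SE, unadjusted p = 0.0101, adjusted p = 0.663 by limma). Over both pairs 4.89% of all tested genes lay lower than HAND1, and so did 11.4% of the 394 genes with an 8mer, whose median was -0.084 against -0.031 for all tested genes. In the pair with siCon these shares were 19.1% and 28.9%, and in the pair with siMYCN 4.72% and 8.88%.

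ISL1, with a 6mer, had let-7a log2 values of -0.13 beside siCon and -0.43 beside siMYCN (unadjusted p = 0.037, adjusted p = 0.663 by limma). HAND2, with a 7mer-A1, had -0.012 and -0.040, and its value over both pairs turned to 0.0078 with rescaling by median ratios. GATA2, with no match, had 0.14 and 0.40 (unadjusted p = 0.0179, adjusted p = 0.663 by limma). TFAP2B, with 2 6mers, had 0.14 and 0.26, and GATA3, with no match, had 0.08 and 0.34. PHOX2A had 0.15 and 0.041, and was the only factor of the 8 with both let-7a libraries above both miRCon libraries, a pattern of 8.9% of tested genes, and of 25.1% counted either way. TBX2 had 0.056 beside siCon and -0.17 beside siMYCN. Between the pairs 7 of 8 factors kept their sign, against 56.0% of tested genes. The size of the let-7a value was larger with siMYCN than with siCon for 7 of the 8 factors, against 56.4% of tested genes. This count and the matching one for siMYCN rest on the same departure from addition and the same double library. They are not separate observations.

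The double library was also set against the library with neither, 1 against 1 and with no test. ISL1 differed by -48.9% and HAND1 by -42.4%, while GATA2 differed by 67.4% and TFAP2B by 61.0%. These 4 were the factors at least 1.5-fold apart, 2 of them higher, against 7.5% of tested genes, and 2 lower, against 5.97%. TBX2 differed by -31.3%, HAND2 by -14.7%, GATA3 by -2.9% and PHOX2A by 0.46%. No factor had siMYCN effects that differed 2-fold or more between the 2 mimics (0 of 8, against 2.39% of tested genes); HAND1 had the largest, -0.33 in log2 terms.

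The summed level of the 8 factors changed little while its makeup changed. The sum was 2101 in the control library, 2158 with let-7a alone, 2029 with siMYCN alone and 2101 in the double library. GATA2 made up 19.3% and 20.6% of it in the siCon libraries, 25.3% with siMYCN alone and 32.3% in the double library. ISL1 made up 6.07% in the control library, 5.39% with let-7a alone, 4.35% with siMYCN alone and 3.1% in the double library.

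**Figure D3:**
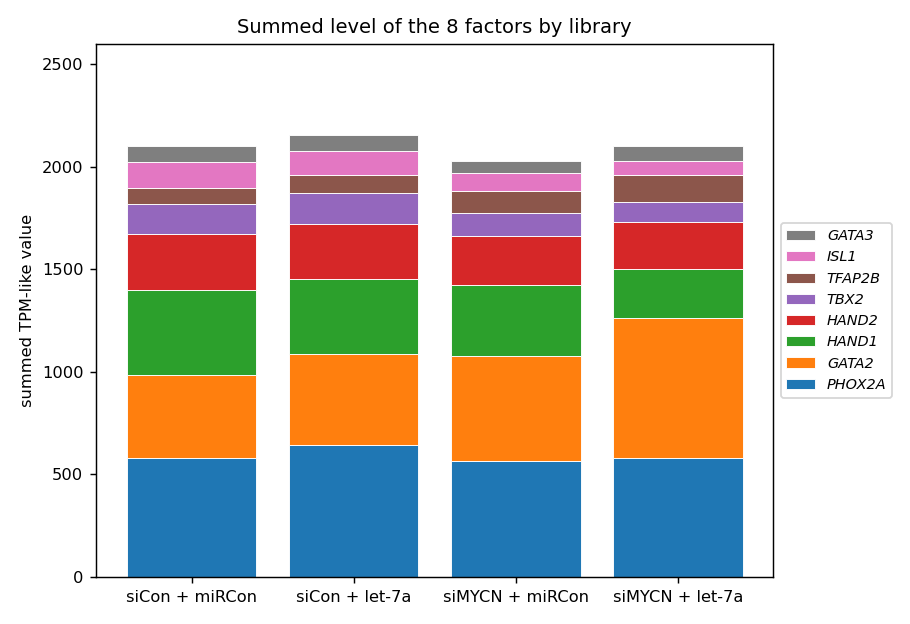
Summed TPM-like value of the 8 factors (vertical axis, starting at 0) in each of the 4 libraries, with each bar divided by factor. The totals lie between 2029 and 2158, and the share of GATA2 is largest in the double library.

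The promoters of ISL1, HAND2 and GATA2 are shown because ISL1 and GATA2 passed in opposite directions with siMYCN and HAND2 holds the most homeodomain words. They are RefSeq windows on GRCh38.p14 of 300 bases, from 250 before to 50 after a gene start, and 7 of the 8 factors had a window. Words searched on both strands were the E-box CACGTG, a second E-box CAGATG, the GATA word AGATAA, the homeodomain word TAATTA, its variant TAATTG, the AP-2 word GCCNNNGGC, the T-box word AGGTGTGA and the TATA word TATAAA. Matches are in capitals.
ISL1 promoter: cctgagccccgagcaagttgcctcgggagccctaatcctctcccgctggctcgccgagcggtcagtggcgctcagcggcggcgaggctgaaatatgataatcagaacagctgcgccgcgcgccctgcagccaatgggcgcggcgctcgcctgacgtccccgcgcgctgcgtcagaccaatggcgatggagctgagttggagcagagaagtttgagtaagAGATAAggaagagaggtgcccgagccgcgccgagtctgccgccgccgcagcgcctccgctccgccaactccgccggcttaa
HAND2 promoter: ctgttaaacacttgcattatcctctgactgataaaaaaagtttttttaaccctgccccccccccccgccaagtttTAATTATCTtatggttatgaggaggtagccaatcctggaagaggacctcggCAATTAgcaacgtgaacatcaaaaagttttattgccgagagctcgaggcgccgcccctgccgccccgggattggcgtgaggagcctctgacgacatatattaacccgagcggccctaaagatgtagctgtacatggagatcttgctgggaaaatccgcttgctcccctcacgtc
GATA2 promoter, first of 2: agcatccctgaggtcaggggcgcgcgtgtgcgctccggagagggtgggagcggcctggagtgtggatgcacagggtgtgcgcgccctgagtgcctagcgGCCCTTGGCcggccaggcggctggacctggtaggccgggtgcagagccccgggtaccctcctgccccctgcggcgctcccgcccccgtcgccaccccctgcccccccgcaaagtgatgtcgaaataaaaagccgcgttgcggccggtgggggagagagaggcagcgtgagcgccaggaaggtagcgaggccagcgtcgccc
The ISL1 window is chr5:51383198-51383497 on the plus strand, the HAND2 window chr4:173530180-173530479 on the minus strand and the GATA2 window chr3:128493152-128493451 on the minus strand. ISL1 held 1 GATA word (AGATAA), as did HAND2, where it overlaps the homeodomain word TAATTA; 10.3% of 35116 windows held AGATAA and 4.84% held TAATTA. HAND2 held a separate TAATTG, present in 7.38% of windows. GATA2 held 1 AP-2 word (GCCNNNGGC) in this window and 2 in its other one, a word found in 23.2% of windows. HAND1 held 2 AP-2 words. TFAP2B held the homeodomain word TAATTG, the TATA word (in 11.5% of windows) and the second E-box (in 14.7%). GATA3 had 6 windows, of which 3 held an AP-2 word, 1 the TATA word and 1 the E-box CACGTG that MYC-family proteins can bind (7.26% of windows). AGGTGTGA, a T-box word found in 0.98% of windows, was in none of those searched for the factors (0), nor did the PHOX2A window hold any of the words. These are matches of letters and not measured binding sites.

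Among other regulators of the noradrenergic state, SOX4 and DACH1 rose with siMYCN. Of the 16 described here, 13 were tested and these 2 passed as higher, against 2.07% of all tested genes; listed genes not reported here are outside these counts, so they do not describe the whole list. SOX4, an SRY-related factor of neural precursors, rose from 96.4 to 144 and from 107 to 183 (adjusted p = 0.0344 by limma). DACH1 rose from 16.8 to 29.2 and from 17.3 to 29.1 (adjusted p = 0.0488 by limma). With no filter or without a trend, limma called 0 of these 13 and 0 of all genes. With either other pseudocount it called 1 rather than 2 as higher. Over all 9324 genes it called 164 higher with a pseudocount of 0.1 and 150 with a pseudocount of 5. With let-7a 0 of the 13 passed limma, 2 at an unadjusted p under 0.05, against 7.48% of all tested genes, and SATB1 and MEIS1 had the largest shared values, at 1.02 and 0.56 for SATB1 and -0.63 and -0.29 for MEIS1.

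Among listed effector genes of the noradrenergic state, GAL, HTR3A and ADCYAP1R1 fell with siMYCN. Of 19 tested effector genes, these 3 passed as lower, against 1.36% of all tested genes, and 0 as higher, against 2.07%. At an unadjusted p under 0.05 limma gave 11, against 26.4%, of which 5 were higher and 6 lower. CHGB had the largest rise over both pairs, with 0.53 beside miRCon and 2.03 beside let-7a (log2, adjusted p = 0.0889 by limma). Below 0 were 12 of the 19, against 3892 of all 9324 tested, and the median was -0.13, against 0.056. GAL, the neuropeptide galanin, fell (-0.84 beside miRCon, -0.71 beside let-7a, log2, adjusted p = 0.0286 by limma), and ADCYAP1R1, the receptor of the peptide PACAP, fell likewise (-0.98 and -1.23, adjusted p = 0.0489 by limma). HTR3A, a serotonin receptor subunit, fell from 9.76 to 1.27 and from 10.7 to 0.663 (adjusted p = 0.0289 by limma). It passed the mean filter of 5 only through its siCon levels, so its place in the count depends on the difference itself. The number of effector genes called lower was 5 with either rescaling, 2 with either other pseudocount, 1 at a mean of at least 20, and 0 with no filter or without a trend in limma. Over all genes, 408 and 263 were called lower with rescaling by median ratios and without mitochondrial transcripts, against 127 as deposited. The number was 107 and 93 with pseudocounts of 0.1 and 5, and 196 of 5672 at a mean of at least 20. With no filter or without a trend it was 0 for all genes as well. At a mean of at least 20, 1 of 13 tested effector genes was called higher, CYB561, against 310 of all 5672 genes tested there. DBH, the enzyme that makes noradrenaline, was at 415 and 475 with siCon and 346 and 389.7 with siMYCN (adjusted p = 0.0634 by limma). With let-7a, 0 of the 19 passed limma, 7 at an unadjusted p under 0.05, against 7.48% of all tested genes, and the granins CHGB and CHGA had log2 fold changes of 0.35 and 1.84, and of 0.30 and 1.24.

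Partner proteins of the 8 factors had small positive values with siMYCN. The 15 tested and described here include E-proteins, ID proteins and LIM cofactors. Over both pairs 15 were above 0, and 12 were above 0 in each pair, with a median of 0.13. Of the 15, 0 passed limma, against 3.43% of all tested genes, and 2 had an unadjusted p under 0.05, against 26.4%. At a mean of at least 20, 1 of 12 tested partners was called higher, ID1, against 310 of all 5672 genes tested there. Over all tested genes, 5432 of 9324 were above 0 over both pairs, 4031 were above 0 in each pair, and the median was 0.056. ID1, which blocks E-proteins, had 0.42 and 0.67 (adjusted p = 0.0634 by limma), and TCF4, an E-protein, had 0.30 and 0.49 (adjusted p = 0.0669 by limma). LDB1, the adaptor of LIM factors such as ISL1, was at 123 in both siCon libraries and at 135 and 129 with siMYCN. With let-7a 0 of the 15 passed limma, against 0.0% of all tested genes, and 0 had an unadjusted p under 0.05, against 7.48%. With let-7a 8 partners were above 0, against 3947 of all 9324 tested genes, and 7 were below. ZFPM1, a cofactor of GATA proteins, had 0.24 and 0.18, and ID2, a relative of ID1, had 0.19 and 0.15.

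Among relatives of the same DNA-binding families, 5 of 27 were expressed enough to be tested, and 0 passed for siMYCN or let-7a by limma, against 3.43% and 0.0% of all tested genes. At an unadjusted p under 0.05 there was 1 with siMYCN, against 26.4%, and 0 with let-7a, against 7.48%. TFAP2A and TFAP2C stayed at 0.0747 or less in every library, and ISL2 at 0.0468 or less, so TFAP2B and ISL1 were the expressed members among them. TBX3, the closest relative of TBX2, had siMYCN log2 values of 0.60 and 0.88 (adjusted p = 0.0502 by limma), against -0.36 and -0.59 for TBX2. It was called in 3 other settings (either rescaling, or a mean of at least 20), where it was the 1 relative called. Of all 9324 genes, 343 were called higher with median ratios and 203 when rescaled without mitochondrial transcripts. At a mean of at least 20 it was 310 of 5672. GATA4 was at 57.3, 53.1, 63.1 and 54.4 in the control, let-7a-only, siMYCN-only and double libraries.

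Of 29 listed regulators linked to the mesenchymal-type state of neuroblastoma, 11 were tested. For siMYCN and let-7a 0 passed by limma, against 3.43% and 0.0% of all tested genes. At an unadjusted p under 0.05 limma gave 4 with siMYCN, against 26.4% of all tested genes, and 0 with let-7a, against 7.48%. The siMYCN median was 0.22, against 0.056 for all tested genes. PRRX1, which can drive that state, was at 0.0796 or less in every library. MAFF had 0.74 and 0.58 with siMYCN and ZEB1 0.52 and 0.56, while SOX9 had 0.25 and 0.64 and FOSL2 0.18 and 0.57 with let-7a.

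**Figure D4:**
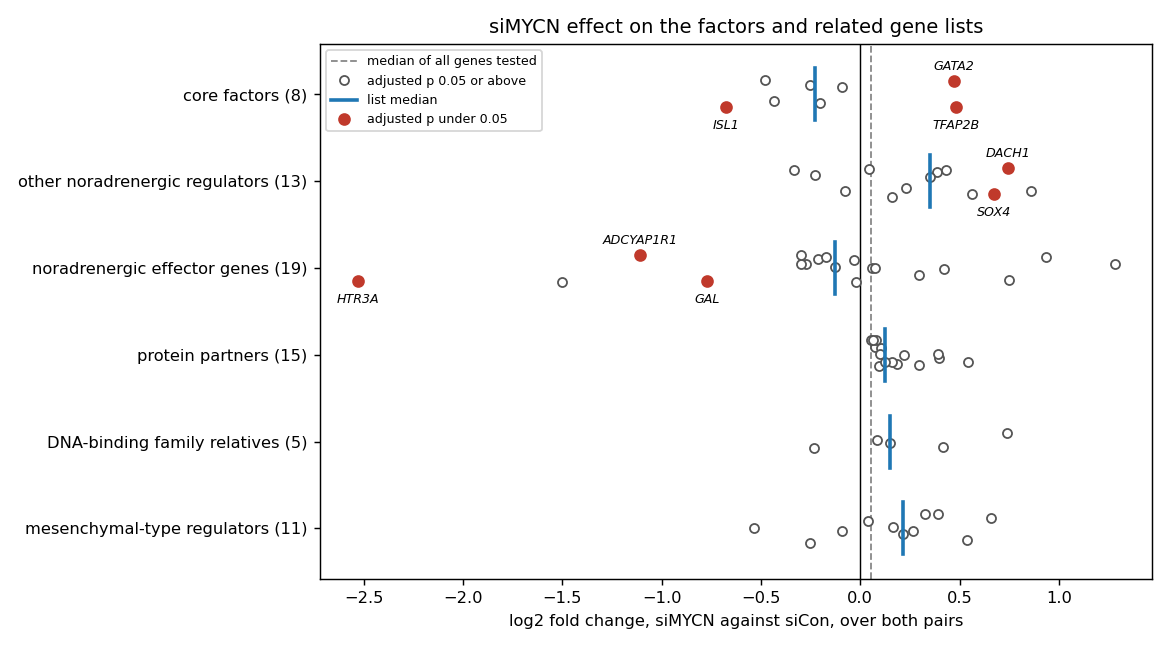
Log2 fold change with siMYCN over both pairs for each tested gene of the 8 factors and of 5 related lists (numbers tested in brackets); filled red points passed limma at an adjusted p under 0.05 and are named, blue bars are list medians and the dashed line is the median of all tested genes. Genes not reported here are left out of the lists and their medians. ISL1 stands among the lower called genes, and GATA2, TFAP2B, SOX4 and DACH1 among the higher ones.

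Profiles over the 4 libraries were compared by the distance between log2(value + 1) values, each gene centred on its own mean. Within the 8 factors, GATA2 and TFAP2B were closest, at 0.10, followed by PHOX2A and HAND2 at 0.17 and ISL1 and HAND1 at 0.25. Among 5671 other genes with a mean of at least 20, the 2 nearest to ISL1 were ADAMTS2 (0.042) and EGLN3 (0.055), and the 2 nearest to GATA2 were ATCAY (0.027) and HR (0.049). HAND1 was nearest to OGFRL1 (0.024) and VPS33A (0.063), TFAP2B to RPL31 (0.040) and CDS2 (0.041), and TBX2 to TMEM194A (0.039) and CYBA (0.052). GATA3 was nearest to SEC23IP (0.021) and PIR (0.035), HAND2 to ILVBL (0.019) and MRPL18 (0.019), and PHOX2A to HDDC2 (0.014) and SDCCAG3 (0.022). Only 4 genes lay within 0.1 of ISL1, against 145 for PHOX2A and 201 for HAND2, whose levels varied less. With 4 libraries, such nearness describes these values only.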

How the data were processed

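PolyA RNA from 4 groups of 1 library was analysed, as grouped by the labels. The authors deposited natural log values per gene, with no depth; exp(x) - 1 gave TPM-like values, since base 2 would sum to between 143211 and 147588. HISAT 0.1.6, Salmon 0.3.2 and GRCh38 are named, per the submitters' processing notes, which do not say what each was used for; the annotation is not stated there. Of 19837 rows, 11 of vector and 92 of ERCC spike-in sequences were set apart, and 28 rows named as dates were kept unnamed. Genes with a mean of at least 5 were tested with limma 3.58.1 (R 4.3.3) on log2(value + 1) and a mean-variance trend, in an additive model of siRNA and mimic that leaves 1 residual degree of freedom, beside 4.3 prior ones; the test was checked on simulated data with additive effects only. Adjusted p-values are Benjamini-Hochberg over all 9324 genes, and the threshold was 0.05.

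The factors and gene lists were chosen with earlier results of these data known. Some listed genes are not reported here, and counts, sums and medians of those lists were computed without them. Named genes were the 8 factors, list members that passed (at most 4 per list and treatment, otherwise at most 2 by the smaller of the pairs' changes), the 2 nearest profiles, and MYCN and LIN28B; DBH, CYB561, TH, NPY, INSM1, LMO3, LDB1, PRRX1, TFAP2A, TFAP2C and ISL2 were named after their values were seen. None of 7 antisense neighbours sought was in the table (0), and no strand setting is known, so reads of overlapping antisense transcripts cannot be told apart. Alternatives were other pseudocounts (0.1 and 5), filters (none, or a mean of 20), scalings, variance settings, folds and single pairs. Python 3.11.15, pandas 2.3.3, NumPy 2.4.6 and Matplotlib 3.10.9 were used, with GENCODE release 29 for coordinates and 3' UTRs.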

Additional observations from a re-analysis of the deposited data

Results flagged for a closer look

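The let-7a values of TBX2 had opposite signs in the 2 pairs, which share no library. In log2 terms it was 0.06 beside siCon and -0.17 beside siMYCN. Each side is 1 library against 1, and the difference between the pairs was not tested.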

How the results depend on the processing

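With siMYCN, 2 of the 8 factors were called higher by limma; the number was 0 with a pseudocount of 0.1, a pseudocount of 5, no filter or no trend, and 1 with rescaling that leaves out mitochondrial transcripts or with robust variance moderation. The number called lower was 1; it was 0 with no filter or no trend, 2 at a mean of at least 20, and 3 with either rescaling. In these settings 4 to 8 of the 8 factors had an unadjusted p under 0.05 by limma. The same p was reached by 2221 to 2527 of 9324 genes in the settings that test that number. It was reached by 1726 of 5672 at a mean of at least 20 and by 2457 of 19734 with no filter. Over all genes, limma called 0 with no filter or no trend. Genes called higher numbered 164 and 150 with pseudocounts of 0.1 and 5, and 203 when rescaled without mitochondrial transcripts. They numbered 185 with robust moderation, against 193 in the main fit. Genes called lower numbered 196 of 5672 at a mean of at least 20. With rescaling by median ratios and without mitochondrial transcripts they numbered 408 and 263, against 127. At 1.5-fold instead of the 25% rule, 0 factors rather than 4 passed in both siMYCN pairs. With let-7a the number called was 0 each way in all 8 other settings, as it was for all genes. In those settings limma gave 0 to 4 factors at an unadjusted p under 0.05, against 635 to 750 where 9324 genes were tested. For all genes it gave 466 of 5672 at a mean of at least 20 and 1161 of 19734 with no filter. Over all settings of the model, 1 of the 16 values of the factors changed sign: HAND2 with let-7a was 0.0078 when rescaled by median ratios. In the pair with siCon alone TBX2 with let-7a was 0.056, against -0.058 over both pairs. The numbers for the combined treatment (4 factors) and for differences between pairs (0 factors) did not change with pseudocount or median-ratio rescaling, settings added after the data were seen. Why the calls changed was not tested. A replicate block could not be fitted because each group holds 1 library and the labels give no replicate numbers; the additive model already compares siMYCN with siCon within each mimic. Depth is unknown, which leaves counting error unmeasured.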

Other observations

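Some genes often used to describe noradrenergic neuroblastoma were near 0 in every library. INSM1, a zinc-finger factor of neuroendocrine cells, was at 0.148 or less, and LMO3 at 0.133 or less. TH, the enzyme of the first step of catecholamine synthesis, was at 6.01 and 6.47 with siCon and 11.6 and 10.7 with siMYCN, far under DBH, and did not pass (adjusted p = 0.083 by limma). NPY, a neuropeptide of sympathetic neurons, was at 398 in the control library, 399 with let-7a alone, 1132 with siMYCN alone and 514 in the double library. Values near 0 may also be estimates that failed, which these gene-level values cannot show.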
